A study of Homo sapiens with 20 samples.

Results

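The FOS and JUN families hold the subunits of AP-1, and the 7 genes described here were FOS, FOSB, FOSL1 and FOSL2 (FOS family) and JUN, JUNB and JUND (JUN family). They were picked by their Ensembl identifiers, 7 of the 19029 genes in the count tables, with their response to i14G1-12 in these libraries already known. The treatment differences below are therefore a description and carry no test of their own. All 20 libraries came from HEK 293T, a human cell line derived from embryonic kidney and labelled WT here, after 1 h of treatment. In the order eIF1, eIF4G1, eIF2a and eIF3, libraries of cells given 5 µM i14G1-12 numbered 3, 3, 2 and 2, and those of cells given DMSO, the solvent, also 3, 3, 2 and 2. The series' title names an eIF1-eIF4G1 inhibitor as its setting. Cells were fixed with formaldehyde, their lysate was cut with RNase I, initiation complexes were separated by centrifugation, and those holding one factor were pulled down. HA antibody was used for eIF1 and eIF2a, both HA-tagged per the series' design text. How the tagged proteins were made, and whether replicates were separate cultures, is not stated in the labels, so any p-value measures the spread between libraries, which may be technical.

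AP-1 is a dimer of leucine zipper proteins that binds DNA. JUN proteins pair with each other or with FOS proteins, whereas FOS proteins need a JUN partner. FOS and JUN are immediate early genes, whose mRNAs are made within minutes of a stimulus and are short-lived, and JUND is usually made at a steadier level. Among the factors pulled down, eIF1 guards the choice of start codon, eIF4G1 is the scaffold that joins the mRNA's cap complex to the small ribosomal subunit, eIF2a is a subunit of the factor that brings the initiator tRNA, and eIF3 is the large complex that binds the small subunit. eIF3 has also been reported to bind the leader of the JUN mRNA directly.

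The upstream sequences of 4 of these genes are shown for contrast. FOS and JUN had higher footprint levels in several immunoprecipitations after i14G1-12, whereas JUND was nearly level in 3 of the 4. FOSB is shown as a FOS family member, although its i14G1-12 and DMSO libraries overlapped in eIF1, eIF4G1 and eIF2a. Capitals mark every match, on either strand, to TGACG, the core of the cAMP response element TGACGTCA, to TGACNTCA, an AP-1-like form that holds TGACGTCA, and to TATAAA. Each run is the 250 bases before the RefSeq start in GRCh38.p14, 5′ to 3′ on the gene's strand.
FOS, chr14:75278578-75278827, strand plus: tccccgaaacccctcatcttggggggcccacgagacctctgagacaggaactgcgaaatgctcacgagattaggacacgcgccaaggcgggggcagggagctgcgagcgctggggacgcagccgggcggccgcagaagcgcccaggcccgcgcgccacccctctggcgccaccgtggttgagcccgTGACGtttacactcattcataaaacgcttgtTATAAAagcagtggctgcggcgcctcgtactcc
FOSB, chr19:45467746-45467995, strand plus: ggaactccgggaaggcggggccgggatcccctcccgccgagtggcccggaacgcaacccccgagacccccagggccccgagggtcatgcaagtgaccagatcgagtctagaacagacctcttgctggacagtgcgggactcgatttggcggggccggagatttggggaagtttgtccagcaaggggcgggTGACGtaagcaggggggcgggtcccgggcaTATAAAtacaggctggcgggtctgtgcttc
JUN, chr1:58784048-58784297, strand minus: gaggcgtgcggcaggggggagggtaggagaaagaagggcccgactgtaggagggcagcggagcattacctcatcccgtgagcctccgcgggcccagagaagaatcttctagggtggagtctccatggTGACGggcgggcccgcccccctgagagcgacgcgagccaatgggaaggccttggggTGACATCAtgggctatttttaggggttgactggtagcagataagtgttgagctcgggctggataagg
JUND, chr19:18281623-18281872, strand minus: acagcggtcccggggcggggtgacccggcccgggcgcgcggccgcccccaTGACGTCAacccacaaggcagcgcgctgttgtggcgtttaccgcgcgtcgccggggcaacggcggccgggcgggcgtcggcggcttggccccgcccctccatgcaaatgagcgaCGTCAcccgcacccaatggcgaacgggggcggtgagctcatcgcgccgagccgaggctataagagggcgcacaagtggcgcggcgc

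In FOS, TGACG lay at -64 to -60 and TATAAA at -33 to -28, counted in bases from the start. FOSB had the same pair at -60 to -56 and -30 to -25. JUN had TGACATCA at -67 to -60 and TGACG at -123 to -119, with no TATAAA. JUND had the full TGACGTCA at -200 to -193, which counts as a match to TGACG on both strands, and a further TGACG on the opposite strand at -86 to -82. Of the other members with a RefSeq promoter, JUNB had TGACG at -137 to -133 and TATAAA at -31 to -26, and FOSL2 had TGACG at -201 to -197 and -66 to -62. TGACG was therefore present in 6 of 6 such windows, against 21.7% of 27305 RefSeq promoters of the same length. TATAAA was in 3 of 6 windows, against 11.1% of promoters, and TGACNTCA in those of JUN and JUND, against 7.09%. TGACGTCA, present in the JUND window, was found in 1.77% of promoters. The AP-1 motif TGANTCA and the CArG box, the sequence bound by serum response factor, were not in any of the 6 windows (6.6% and 1.14% of promoters). Sequence outside these windows, such as bases farther upstream, was not searched. These matches describe letters, not bound sites.

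In GRCh38.p14 the members lie at chr14:75278828-75282230 (FOS, ENSG00000170345), chr19:45467996-45475179 (FOSB, ENSG00000125740), chr11:65892049-65900545 (FOSL1, ENSG00000175592), chr2:28392858-28417317 (FOSL2, ENSG00000075426), chr1:58780791-58784047 (JUN, ENSG00000177606), chr19:12791486-12793315 (JUNB, ENSG00000171223) and chr19:18279694-18281622 (JUND, ENSG00000130522). The counted sequences were 2104 bases for FOS, 3257 for JUN and 1929 for JUND, and 1702 to 6713 over all 7. The 7 genes held 20013 reads over the 20 libraries, and JUN held 17875 of them, or 89.3%. JUND came next with 1355 reads (6.77%), followed by FOS with 291, JUNB with 205, FOSL2 with 144, FOSB with 117 and FOSL1 with 26. JUN and JUND were seen in every library. FOSL1, a FOS family member known from invasive and stimulated cells, was at 0 in 13 of the 20 libraries, so its direction could not be read at this depth. Total counts per library ran from 10033 to 1161512. DMSO 2 of eIF2a, with 10033 counts, and DMSO 2 of eIF3, with 59179, stood apart: their median Spearman correlations with the other libraries, over genes, were 0.573 and 0.806, against 0.856 to 0.927 for the remaining 18. In DMSO 2 of eIF2a a count of 0 allows up to 156 CPM, so member fold changes, medians, ratios and separations of the groups in eIF2a and eIF3 are also given without these libraries. CPM are counts scaled to a common library size (counts per 1e6, with TMM factors) over the 20 libraries, and a level per kb divides them by the length of sequence counted for the gene. No input RNA was used here, so more mRNA in the cell and more complexes per mRNA cannot be told apart. Reads that match several FOS or JUN paralogues could have been split or lost, and their share was not tested.

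**Figure D1:**
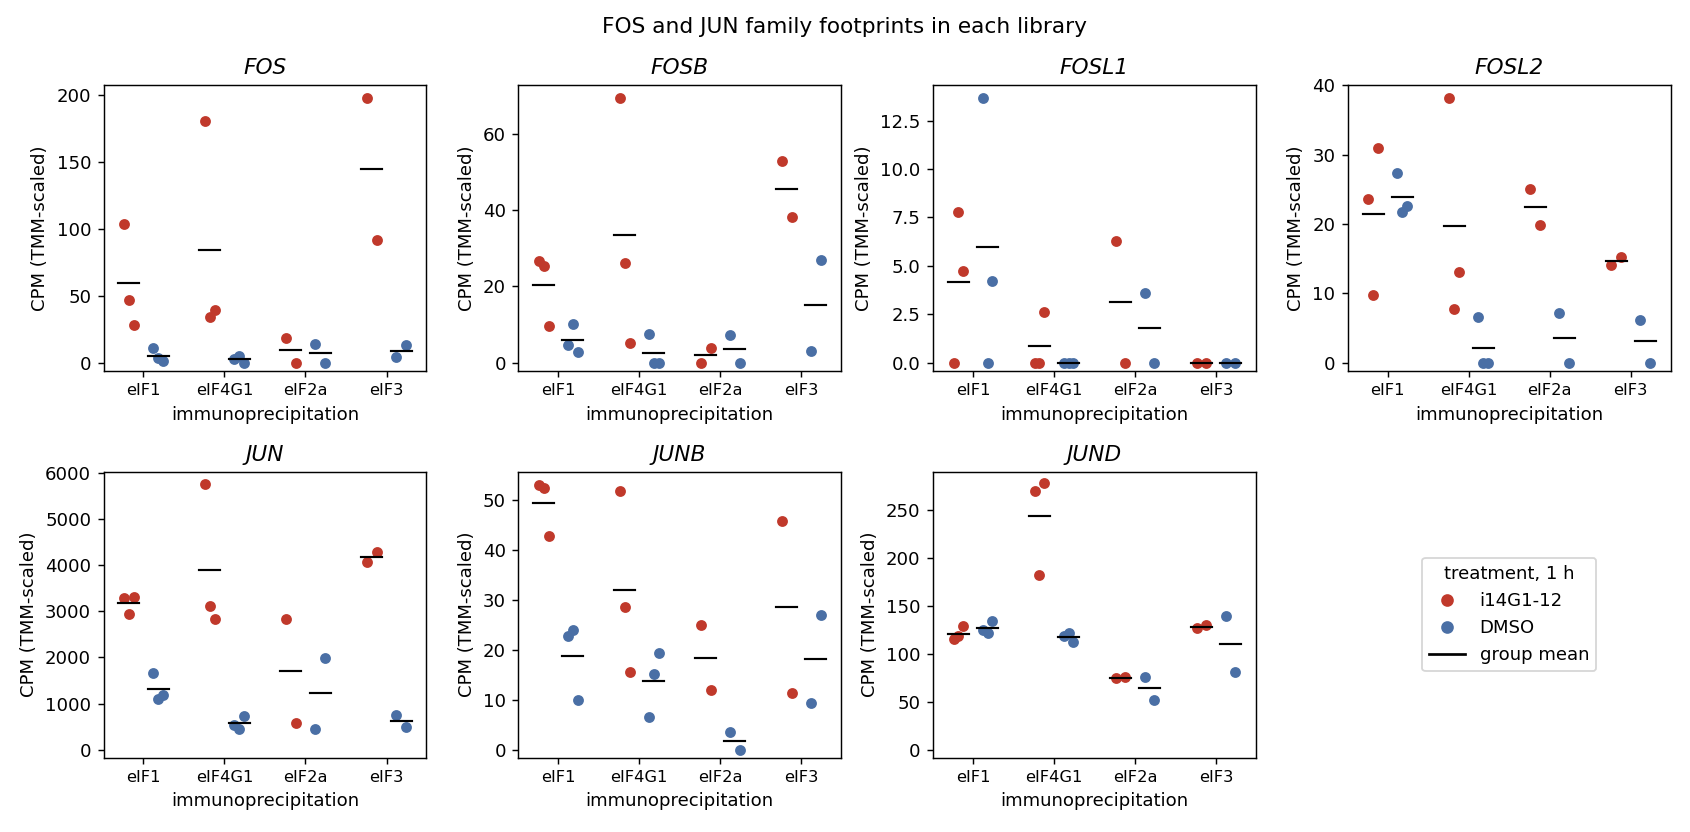
Footprint level of each gene in each of the 20 libraries (CPM, TMM-scaled, a separate linear axis per gene), with i14G1-12 in red beside DMSO in blue and a bar at each group mean. JUN in i14G1-12 lies above JUN in DMSO in eIF1, eIF4G1 and eIF3, and JUND is raised above its DMSO libraries in eIF4G1 only.

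JUN, the main partner of FOS in AP-1, had by far the most footprints and more of them after i14G1-12 in 3 of the 4 immunoprecipitations. In eIF1 complexes it stood at 3300 CPM, 2932 CPM and 3318 CPM in i14G1-12 libraries a, b and c, against 1651 CPM, 1089.5 CPM and 1181 CPM in DMSO libraries a, b and c. The lowest i14G1-12 library was thus well above the highest DMSO library. The fitted log2 fold change was 1.26 (SE 0.22), a 2.40-fold difference. In eIF4G1 complexes JUN had 5767 CPM, 3112 CPM and 2828 CPM in i14G1-12 libraries 1 to 3, against 542 CPM, 456 CPM and 727 CPM in DMSO libraries 1 to 3. These groups were even farther apart, with a log2 fold change of 2.77 (SE 0.31), or 6.84-fold. In eIF3 complexes it had 4061 CPM and 4296 CPM in i14G1-12, against 749 CPM and 500.0 CPM in DMSO, a log2 fold change of 2.69 (SE 0.73). Both i14G1-12 libraries were several times higher than both DMSO libraries, and without DMSO 2 the log2 fold change was 2.47.

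In eIF2a complexes the JUN values overlapped. They were 2830.1 CPM and 583 CPM in i14G1-12 libraries 1 and 2, against 457 CPM and 1978 CPM in DMSO libraries 1 and 2, and the last of these rested on 38 reads in the library of 10033 counts. The log2 fold change was 0.64 (SE 0.43), and 1.89 without that library, where it passed the table-wide threshold with the lone DMSO library assumed to vary like the i14G1-12 ones. It was -1.11 without i14G1-12 library 1 and -0.51 without DMSO library 1, so single libraries set its size and sign.

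The order of JUN levels over the 8 groups followed the treatment. Mean levels in i14G1-12 were 4178 ± 166 CPM in eIF3 (SD, n = 2), 3902 ± 1621 CPM in eIF4G1 (SD, n = 3), 3183 ± 218 CPM in eIF1 (SD, n = 3) and 1706 ± 1589 CPM in eIF2a (SD, n = 2). In DMSO they were 1307 ± 301 CPM in eIF1 (SD, n = 3), 1217 ± 1075 CPM in eIF2a (SD, n = 2), 625 ± 176 CPM in eIF3 (SD, n = 2) and 575 ± 139 CPM in eIF4G1 (SD, n = 3). The eIF3 and eIF1 libraries in i14G1-12 lay within the range of the eIF4G1 libraries in i14G1-12, so these neighbours did not differ beyond their spread. The eIF2a libraries in i14G1-12 spanned all the eIF1 libraries in DMSO. Overlap was also seen in DMSO for eIF3 and eIF4G1, and for eIF1 and eIF2a.

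FOS, the founding member of its family, was almost absent in DMSO and had more reads after i14G1-12 in 3 of the 4 immunoprecipitations. In eIF1 complexes it had 35, 24 and 12 reads in i14G1-12 libraries a, b and c, against 10, 3 and 1 reads in DMSO libraries a, b and c. As levels these were 103 CPM, 46.6 CPM and 28.6 CPM in i14G1-12, against 11.4 CPM, 3.43 CPM and 1.41 CPM in DMSO. The groups did not overlap, although i14G1-12 library a was over 3 times library c. The log2 fold change was 3.31 (SE 0.61). In eIF4G1 complexes FOS had 52, 13 and 45 reads in i14G1-12, against 3, 2 and 0 reads in DMSO, with levels of 180.2 CPM, 33.9 CPM and 39.1 CPM in i14G1-12, against 2.84 CPM, 5.06 CPM and 0 CPM in DMSO. Every i14G1-12 library was far above every DMSO library, and the DMSO library at 0 allows up to 11.7 CPM. The log2 fold change was 4.70 (SE 0.81), which rests on 5 DMSO reads in all.

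In eIF3 complexes FOS had 56 and 24 reads in i14G1-12, against 3 and 1 reads in DMSO, at 198 CPM and 91.6 CPM in i14G1-12, against 4.66 CPM and 13.5 CPM in DMSO. The log2 fold change was 4.47 (SE 0.91), and 4.86 without DMSO 2. In eIF2a complexes FOS gave 3 and 0 reads in i14G1-12, against 4 and 0 reads in DMSO. That is too few for a direction, since 0 reads allow up to 11.9 CPM in i14G1-12 library 2 and 156 CPM in DMSO library 2. The gene was not tested there.

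FOSB, a FOS paralogue also known as an immediate early gene, was low and uneven. It had 15 and 10 reads in eIF3 complexes in i14G1-12, against 2 and 2 in DMSO, at 52.9 CPM and 38.2 CPM in i14G1-12, against 3.11 CPM and 27.0 CPM in DMSO. The groups did not overlap, but the higher DMSO value came from 2 reads in the shallow library. Its log2 fold change was 2.58 (SE 1.19), 3.74 without that library and 0.67 without the other DMSO library. In eIF4G1 complexes FOSB had 20, 10 and 6 reads in i14G1-12, against 8, 0 and 0 in DMSO, and in eIF1 complexes 9, 13 and 4 in i14G1-12, against 4, 9 and 2 in DMSO. One i14G1-12 library fell below the highest DMSO library in each of these.

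FOSL2, a FOS paralogue found in many tissues, did not share the pattern of FOS in eIF1 complexes. There it had 23.6 CPM, 9.71 CPM and 30.9 CPM in i14G1-12, against 27.3 CPM, 21.7 CPM and 22.5 CPM in DMSO, which overlapped, with a log2 fold change of -0.21 (SE 0.52). In eIF4G1 complexes it had 11, 3 and 15 reads in i14G1-12, against 7, 0 and 0 in DMSO. The lowest of these i14G1-12 libraries stood at 7.82 CPM, against 6.62 CPM in DMSO library 1, but the 0 reads of DMSO library 3 allow up to 11.7 CPM, so a separation was not shown. In eIF2a complexes FOSL2 had 4 and 5 reads in i14G1-12, against 2 and 0 in DMSO, and in eIF3 complexes 4 and 4 in i14G1-12, against 4 and 0 in DMSO. At these counts the separation of the groups rests on few reads. FOSL1 had at most 12 reads in any library. In eIF4G1 complexes its reads were 0, 0 and 3 in i14G1-12, against 0, 0 and 0 in DMSO, and in eIF3 complexes it was at 0 in all 4 libraries.

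JUNB, which can oppose JUN at some AP-1 sites, was higher in all eIF1 libraries of i14G1-12. It had 53.1 CPM, 52.4 CPM and 42.8 CPM in i14G1-12, against 22.8 CPM, 24.0 CPM and 9.86 CPM in DMSO, a log2 fold change of 1.34 (SE 0.44). The groups were separate, but the gene did not pass the table-wide threshold. In eIF4G1 it had 52.0 CPM, 28.7 CPM and 15.6 CPM in i14G1-12, against 6.62 CPM, 15.2 CPM and 19.4 CPM in DMSO, where the groups overlapped. JUNB had 4 and 3 reads in i14G1-12, against 1 and 0 in DMSO, in eIF2a complexes, and 13 and 3 reads in i14G1-12, against 6 and 2 in DMSO, in eIF3 complexes.

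JUND, the JUN family member often linked to resting cells, was nearly level between treatments in eIF1, eIF2a and eIF3 complexes and higher in all i14G1-12 libraries of eIF4G1. In eIF1 complexes it had 115 CPM, 118 CPM and 129 CPM in i14G1-12, against 125 CPM, 121 CPM and 134 CPM in DMSO, with a log2 fold change of -0.09 (SE 0.24). In eIF3 complexes it had 127 CPM and 129.7 CPM in i14G1-12, against 139.9 CPM and 81.1 CPM in DMSO, with a log2 fold change of 0.10 (SE 0.62), and -0.14 without DMSO 2. In eIF2a complexes it had 75.1 CPM and 75.3 CPM in i14G1-12, against 75.6 CPM and 52.0 CPM in DMSO, the last from 1 read, and without that library the log2 fold change was -0.0017. The groups overlapped in these 3. In eIF4G1 complexes JUND had 270.3 CPM, 183 CPM and 279 CPM in i14G1-12, against 118 CPM, 121 CPM and 113 CPM in DMSO. Here all i14G1-12 libraries were above all DMSO libraries, with a log2 fold change of 1.06 (SE 0.31), which did not pass in edgeR.

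**Figure D2:**
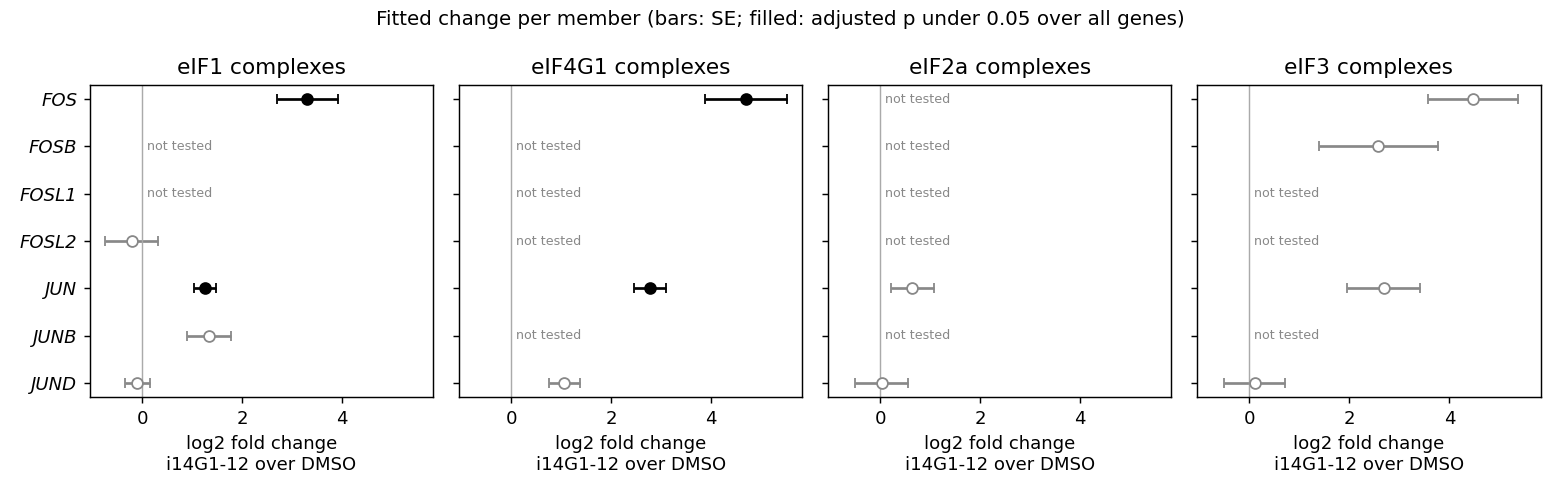
Fitted log2 fold change of i14G1-12 over DMSO for each gene in each immunoprecipitation, with bars of 1 SE (edgeR); filled points passed an adjusted p of 0.05 over all genes of that table, and genes below the count filter are marked as not tested. FOS and JUN are filled in eIF1 and eIF4G1, and JUND is near 0 except in eIF4G1.

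Counted against the whole tables, 2 of the 5 members tested in eIF1 complexes (FOS and JUN, both higher) passed an adjusted p of 0.05 in edgeR's quasi-likelihood test with Benjamini-Hochberg adjustment, where 0.456% of 8338 genes did. In eIF4G1 complexes the same 2 of 3 members tested passed, where 0.347% of 7203 genes did. In eIF3 complexes 0 of 4 members tested passed, where 0.0159% of 6300 genes did; 3 of the 4 (FOS, FOSB and JUN) had an unadjusted p under 0.05 in edgeR, where 1.75% of genes did, and DESeq2 called JUN, where it called 0.0203% of genes. FOS also passed in edgeR with no count filter and in 1 fit to all 20 libraries, and JUN in that fit. In eIF2a complexes 0 of 2 members passed, where 0 of 4719 genes did, with 87 genes (1.84%) at an unadjusted p under 0.05 and 0 called by DESeq2. FOS in eIF1, eIF4G1 and eIF3, and FOSB in eIF3, passed the count filter through their i14G1-12 libraries alone. FOSB, FOSL1, FOSL2 and JUNB were below the filter in eIF4G1 and were not tested there. For these reasons, and because the members were chosen on these contrasts, nothing is read from the counts. JUN in eIF4G1 complexes passed under all 13 alternatives run, with log2 fold changes of 2.38 to 2.96. FOS in eIF1 lost the call without i14G1-12 a, DMSO b or DMSO c (adjusted p 0.0907, 0.0837 and 0.154 in edgeR's quasi-likelihood test), and JUN in eIF1 without i14G1-12 c, DMSO b or DMSO c (0.0521, 0.101 and 0.199). FOS in eIF4G1 lost it without i14G1-12 1, DMSO 1 or DMSO 3 (0.0742, 0.121 and 0.102). JUN in eIF1 also lost it in 1 fit to all 20 libraries (0.419).

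In eIF1 complexes 3 of 7 members (FOS, JUN and JUNB) had every i14G1-12 library above every DMSO library, against 6.54% of genes with a count. In eIF4G1 complexes 4 of 7 did (FOS, FOSL2, JUN and JUND), against 5.59%. In eIF3 complexes 4 of 7 did (FOS, FOSB, FOSL2 and JUN), against 15.2%, and in eIF2a complexes FOSL2 and JUNB did, against 20.9%. With 0 reads set to what 3 counts would give, the numbers were 3 in eIF1, 3 in eIF4G1, 3 in eIF3 and 0 in eIF2a. FOSL2 in eIF4G1, eIF3 and eIF2a and JUNB in eIF2a each rested on a DMSO library at 0. FOSB stayed in the eIF3 number with 2 reads in DMSO 2, at 27.0 CPM. In that library 3 counts would give 40.5 CPM, above the lowest i14G1-12 level of FOSB at 38.2 CPM, so its separation was not shown. Without DMSO 2, 5 members lay above the remaining DMSO library in eIF3, against 27.6% of genes, and 3 in eIF2a, against 26.1%. No member had every i14G1-12 library below every DMSO library in eIF1, eIF4G1, eIF3 or eIF2a, where 6.62%, 4.86%, 9.32% and 5.2% of genes with a count did. The 7 genes had a median difference in mean log2 CPM of 1.26 for eIF1, 1.82 for eIF4G1, 1.49 for eIF3 and 0.25 for eIF2a. Over all genes with a count it stood at 0.01 for eIF1, -0.02 for eIF4G1, 0.18 for eIF3 and 0.65 for eIF2a. Without DMSO 2 the members' median was 1.04 for eIF3 and -0.0066 for eIF2a, and that of all genes 0.01 and -0.03.

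Levels per kb allow the 7 genes to be set beside each other. In eIF1 complexes in i14G1-12 JUN stood at 977 ± 66.8 CPM per kb, JUND at 62.6 ± 3.63, FOS at 28.3 ± 18.5, JUNB at 27.0 ± 3.14, FOSB at 5.42 ± 2.51, FOSL2 at 3.19 ± 1.61 and FOSL1 at 2.45 ± 2.30 CPM per kb (SD, n = 3). In DMSO JUN stood at 401 ± 92.6 CPM per kb, JUND at 65.7 ± 3.33, JUNB at 10.3 ± 4.28, FOSL2 at 3.56 ± 0.449, FOSL1 at 3.50 ± 4.11, FOS at 2.57 ± 2.51 and FOSB at 1.56 ± 1.04 CPM per kb (SD, n = 3). JUN and JUND kept the first and second place in both, while FOS and JUNB did not differ beyond their spread in i14G1-12. In DMSO the libraries of FOSL1 overlapped those of both FOSL2 and FOS, and those of FOS overlapped those of FOSB. Summed over the 7 genes, the level was 1106 CPM per kb in i14G1-12 (1025 to 1161 over 3 libraries) and 489 CPM per kb in DMSO (418 to 603) in eIF1. In eIF4G1 it was 1395 in i14G1-12 (1045 to 2049) and 247 in DMSO (214 to 292), and in eIF3 1448 in i14G1-12 in both libraries and 268 in DMSO (224 to 312). Only in eIF2a did the groups overlap, with 583 in i14G1-12 (228 to 938) and 414 in DMSO (193 to 634).

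Shares of the family's reads and the ratio of JUN to JUND need no scaling between libraries. JUN made up 92.0% of family reads in i14G1-12 (91.1% to 93.1%) and 87.3% in DMSO (85.8% to 89.0%) in eIF1 complexes. In eIF4G1 complexes it made up 90.4% in i14G1-12 (88.9% to 91.8%) and less in DMSO (76.3% to 84.6%), and in eIF3 complexes 92.0% in i14G1-12 (90.3% and 93.8%) and 79.6% in DMSO (77.1% and 82.1%). JUND mirrored this, at 3.50% ± 0.282 in i14G1-12 and 8.72% ± 1.72 in DMSO in eIF1 (SD, n = 3 each). In eIF4G1 the share of JUND was also lower, at 6.13% ± 2.35 in i14G1-12 and 16.9% ± 3.62 in DMSO (SD, n = 3 each), although its own level was higher. In eIF2a complexes the shares overlapped: JUN averaged 89.5% in i14G1-12 and 88.9% in DMSO (80.4% and 97.4%), and JUND averaged 6.69% in i14G1-12 and 7.93% in DMSO.

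**Figure D3:**
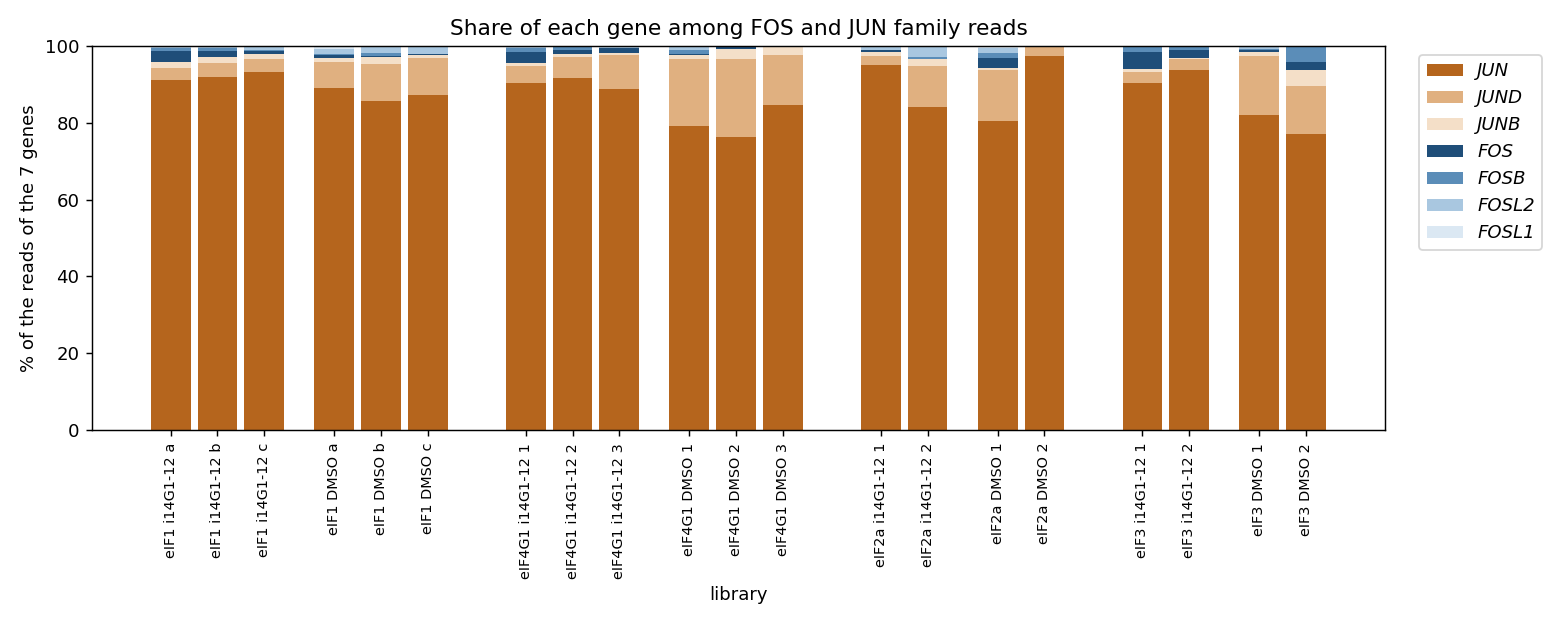
Share of each gene among the reads of the 7 genes in each library (stacked to 100%), with i14G1-12 libraries left of the DMSO libraries of the same immunoprecipitation. JUN takes the largest share everywhere, and the band of JUND is wider in DMSO in eIF1, eIF4G1 and eIF3.

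For each JUND read in eIF1 complexes there were 28.7, 24.8 and 25.8 JUN reads in i14G1-12, against 13.2, 8.98 and 8.82 in DMSO. In eIF4G1 complexes there were 21.3, 17.0 and 10.1 in i14G1-12, against 4.58, 3.75 and 6.45 in DMSO. In eIF3 complexes there were 32.0 and 33.1 in i14G1-12, against 5.36 and 6.17 in DMSO. The 2 groups were separate in each of these 3 immunoprecipitations. In eIF2a complexes the ratios were 37.7 and 7.74 in i14G1-12, against 6.05 and 38 in DMSO, the last from 38 JUN reads and 1 JUND read, with an exact 95% interval of 6.42 to 1540 that covers counting error only. Per length and on the log2 scale, the mean difference in the ratio, i14G1-12 minus DMSO, was 1.38 in eIF1, 1.69 in eIF4G1, 2.50 in eIF3 and 0.17 in eIF2a, and 2.60 and 1.497 in the last 2 without DMSO 2.

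**Figure D4:**
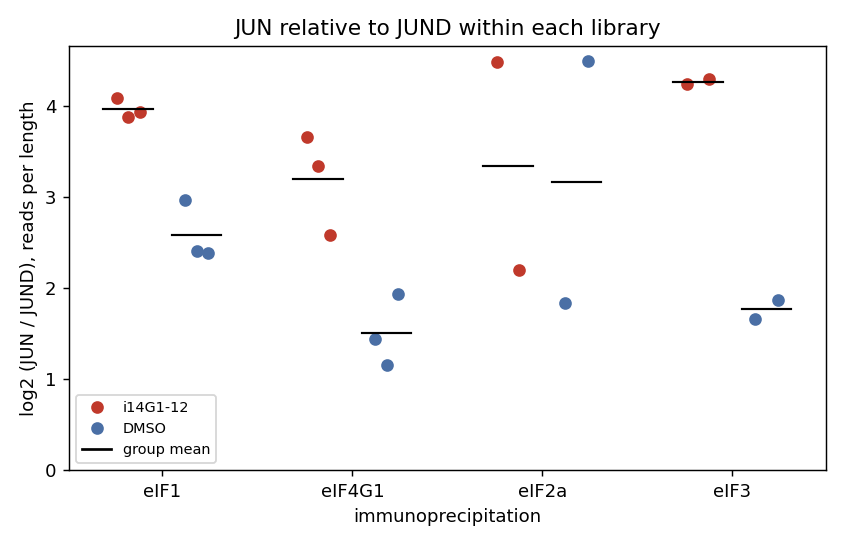
JUN over JUND within each library (log2 of reads per length), with i14G1-12 in red left of DMSO in blue and a bar at each group mean. The treatments are separate in eIF1, eIF4G1 and eIF3 and overlap in eIF2a.

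A further question was whether the i14G1-12 difference itself varied between immunoprecipitations. This was tested in 1 fit to all 20 libraries, which shares its libraries with the contrasts above. FOS passed the count filter of that fit through its i14G1-12 libraries alone, and FOSB and JUNB would not have passed it without theirs. Nothing is therefore read from the number of members passing. None of the 5 members tested passed (edgeR's quasi-likelihood test with Benjamini-Hochberg adjustment), where 0.0212% of 9426 genes did. FOS and JUN were under 0.05 before adjustment in edgeR's fit, where 1.8% of genes were, and DESeq2 was not run on this contrast. The difference was smaller in eIF1 than in eIF4G1 by 1.48 on the log2 scale for JUN (eIF1 minus eIF4G1 -1.48, SE 0.56), by 1.33 for FOS (-1.33, SE 1.07) and by 1.12 for JUND (-1.12, SE 0.45). All 3 had an adjusted p of 1.000 in edgeR's quasi-likelihood test, where 0.0318% of genes passed, and unadjusted p values of 0.0105, 0.219 and 0.0156. A difference between immunoprecipitations was therefore not shown for these genes.

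Each immunoprecipitation was also set against the mean of the other 3 within one treatment. The fit and the limit from its count filter were the same, so the calls of FOS below are a description. In i14G1-12, FOS was higher in eIF3 complexes by 2.14 on the log2 scale (SE 0.54, adjusted p = 0.0136, edgeR's quasi-likelihood test), where 2.88% of genes passed. Its levels there were 198 CPM and 91.6 CPM, against means of 59.5 ± 39.0 CPM in eIF1 (SD, n = 3), 84.4 ± 83.0 CPM in eIF4G1 (SD, n = 3) and 9.39 CPM in eIF2a. The lower eIF3 library lay inside the ranges of eIF1 and eIF4G1. The eIF2a mean rested on 3 and 0 reads in i14G1-12 libraries 1 and 2, and that group enters the mean of the other 3. Without eIF2a i14G1-12 2 the difference was 1.71. The call was lost without eIF2a i14G1-12 2, eIF3 i14G1-12 1 or eIF3 i14G1-12 2 (edgeR adjusted p 0.0929, 0.204 and 0.0531).

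JUND in i14G1-12 was higher in eIF4G1 complexes than in the others by 1.22 on the log2 scale (SE 0.27, adjusted p = 0.0264, edgeR's quasi-likelihood test), where 0.127% of genes passed. It averaged 244 ± 53.3 CPM in eIF4G1 (SD, n = 3), against 121 ± 6.99 CPM in eIF1 (SD, n = 3), 75.2 ± 0.120 CPM in eIF2a (SD, n = 2) and 128 ± 1.91 CPM in eIF3 (SD, n = 2). All 3 eIF4G1 libraries were above all the others. The call was nevertheless lost without any one of 7 libraries, with edgeR adjusted p values of 0.0516 to 0.137: eIF1 i14G1-12 b and c, eIF1 DMSO c, eIF4G1 i14G1-12 1 and 3, and eIF2a i14G1-12 1 and 2. FOS in i14G1-12 was lower in eIF2a complexes by 3.49 (log2 difference -3.49, SE 0.88). It did not pass (adjusted p = 0.0880, edgeR's quasi-likelihood test), where 0.0955% of genes did. The eIF2a libraries held only 3 and 0 FOS reads, and 0 reads allow up to 11.9 CPM in library 2. With a library left out the difference ran from -8.38 to -2.20, and it was -3.64 without eIF3 i14G1-12 2. It passed with no count filter (edgeR adjusted p = 0.00951) and without eIF4G1 i14G1-12 2 or eIF4G1 i14G1-12 3 (0.0481 and 0.0450). It also passed without eIF3 i14G1-12 2, with the lone eIF3 i14G1-12 library assumed to vary like the other groups.

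JUN did not pass in any of the 4 contrasts in i14G1-12, and no member passed in that of eIF1, where 6.97% of genes did. Its log2 differences from the other 3 were 0.06 in eIF1 (SE 0.33), 0.46 in eIF4G1 (SE 0.33), -1.14 in eIF2a (SE 0.42) and 0.61 in eIF3 (SE 0.37), and the first became -0.36 with scaling to total counts. In DMSO 0 of 5 members tested passed in any contrast with all 20 libraries. There 4.08% of genes did for eIF1, 0.117% for eIF4G1, 0.053% for eIF2a and 0.0955% for eIF3. Before adjustment only JUN was under 0.05 there, in the contrasts of eIF1 and eIF4G1, where 14.6% and 5.18% of genes were (3.7% for eIF2a and 5.79% for eIF3). JUN in DMSO was 0.84 higher in eIF1 than in the others (SE 0.34, adjusted p = 0.176, edgeR's quasi-likelihood test). With scaling to total counts the difference was 0.27 (adjusted p = 0.686, edgeR's quasi-likelihood test). Without the eIF2a library of 10033 counts it was 1.22 and passed, with the lone eIF2a DMSO library assumed to vary like the other groups. The lack of a call thus depended on that shallow library. JUN in eIF4G1 was 0.73 lower in DMSO (log2 difference -0.73, SE 0.36, adjusted p = 0.940, edgeR's quasi-likelihood test), and -0.34 without that library.

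Over the 20 libraries, the log2 levels of FOS and FOSB ran together (Pearson r = 0.822), as did those of FOS and JUN (r = 0.770), whereas FOSL1 showed little relation to FOS (r = 0.0283). These are descriptions of libraries that share treatment and depth. Outside the family, among 9895 genes with a mean of at least 10 CPM, the patterns most like FOS were those of ENSG00000120738 (r = 0.886) and ENSG00000089248 (r = 0.807). Those most like JUN were ENSG00000204389 (r = 0.843) and ENSG00000087995 (r = 0.832). By Spearman's rho 0 of the 2 for FOS and 1 of the 2 for JUN stayed among the first 2.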

How the data were processed

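RNA footprints of initiation complexes were read by selective TCP-seq in 20 HEK 293T libraries. Raw counts were deposited by the authors as 4 tables, 1 per immunoprecipitation, with 1 sequence per Ensembl identifier, per the file headers. Tools named in the submitters' processing notes are cutadapt, Trimmomatic, Bowtie, HISAT2 and featureCounts, with the hg38 build. How reads that match several genes, such as paralogues, were handled and whether strand was used is not stated in the labels.

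Counts were tested in R 4.3.3 with edgeR 4.0.16 (filterByExpr with a minimum count of 10, TMM, glmQLFit and glmQLFTest), adjusted by Benjamini-Hochberg over all genes at 0.05. Treatment was fitted within each immunoprecipitation, and other contrasts in 1 fit to all 20 libraries. Standard errors were derived from the fold change and the F statistic. Levels are TMM-scaled CPM; differences of mean log2 CPM use a prior count of 2. DESeq2 1.42.0 was an alternative. The tests were run on simulated data first. Columns were matched to samples by name; eIF1 columns carry numbers other than the labels' replicate numbers and are called a, b and c. Within every group, replicates differed beyond counting error (chi-square per degree of freedom 1.34 to 10.2), so none was merged. Same-numbered libraries deviated together with r of 0.00596, -0.106 and -0.149 in eIF4G1, -0.0192 in eIF2a and 0.548 in eIF3. With 2 libraries per group, as in eIF2a and eIF3, the other pairing gives the same r with the sign reversed. Same-numbered libraries were not treated as paired, since the labels name no shared batch and no immunoprecipitation with 3 numbers showed it.

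The members, lists and tests were chosen with earlier results of these data known. All 7 members are named, with the 2 genes most like FOS and the 2 most like JUN by Pearson r. Of 19029 identifiers, 0 matched a symbol in the reference table, so lists of partner, upstream and target genes and of HEK 293T markers were not run. Member symbols come from the identifiers used to choose them. The counted lengths of 3 members (JUN, JUNB and JUND) equal their RefSeq spans. Sequences are from RefSeq (GRCh38.p14), which matched 6 of 7 members.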

Additional observations from a re-analysis of the deposited data

How the results depend on the processing

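The direction of each called member held under the alternatives that gave it a value, and no called value changed sign. Values of FOS were available under 10 alternatives in eIF1, against 12 for JUN, and under 11 in eIF4G1, against 13. The FOS calls could thus not be checked under every setting. Counts of genes called moved more. For i14G1-12 over DMSO in eIF1 complexes the count was 38, and 129 with no filter, 70 with a minimum count of 30, 174 with DESeq2, 4 in 1 fit to all 20 libraries and 2 to 64 when a library was left out (2 without DMSO c, 4 without i14G1-12 c, 5 without DMSO b, 20 without i14G1-12 b, 64 without DMSO a). In eIF4G1 it was 25, and 68 with no filter, 40 with a minimum of 30, 97 with DESeq2 and 4 to 46 with a library left out (4 without DMSO 3, 5 without DMSO 1, 12 without DMSO 2, 41 without i14G1-12 1, 46 without i14G1-12 3). In eIF2a it was 0, and 0 to 13 with a library left out (1 without i14G1-12 2, 2 without DMSO 2, 13 without DMSO 1). In eIF3 it was 1, and 0 with total counts, 2 with no filter, 3 with DESeq2, 5 in 1 fit and 0 to 3 with a library left out (0 without DMSO 1, 3 without i14G1-12 2). With the replicate block, although the labels name no pairing and no eIF4G1 library deviated most like its own number, the counts were 31 in eIF4G1, 0 in eIF2a and 38 in eIF3, where FOS (log2 fold change 4.89) and JUN (2.67) then passed. No paired analysis was possible for eIF1 because its columns carry no replicate number of the labels. FOS in eIF3 also passed with no filter, in 1 fit and without i14G1-12 2 (where the lone i14G1-12 library is assumed to vary like the DMSO ones), JUN in eIF3 with DESeq2 and in 1 fit, and JUND in eIF4G1 with DESeq2.

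For the effect between all 4 immunoprecipitations the count was 2, 5 with no filter and 1 to 5 with a library left out, and for eIF1 minus eIF4G1 it was 3, and 1 to 3. In i14G1-12, counts against the other 3 were 657 for eIF1 (101 to 868 with a library left out), 12 for eIF4G1 (57 with no filter, 9 to 91), 9 for eIF2a (41 with total counts, 21 with no filter, 23 with a minimum of 30, 0 to 36) and 271 for eIF3 (436 with DESeq2 size factors, 446 with total counts, 11 to 795). In DMSO they were 385 for eIF1 (206 with total counts, 82 to 484), 11 for eIF4G1 (19 with no filter, 3 to 17), 5 for eIF2a (8 with no filter, 8 with total counts, 0 to 8) and 9 for eIF3 (17 with no filter, 1 to 41). Scaling to total counts turned the split for eIF1 to 161 higher and 602 lower in i14G1-12, against 534 and 123 with TMM, and to 109 higher and 97 lower in DMSO, against 354 and 31. It moved the median log2 difference of all genes to -0.43 and -0.33 in these contrasts, and to -0.13 in eIF1 and -0.16 in eIF4G1 for i14G1-12 over DMSO. The cause was not tested.

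The log2 ratio of the summed level of the 7 genes was -0.86 to 1.59 in eIF2a (-0.21 with total counts) and 2.22 to 2.69 in eIF3 with a library left out. In eIF3 it was 2.61 to 4.39 for the FOS family and 2.15 to 2.70 for the JUN family. In DMSO 2 of eIF2a 0 reads allow up to 156 CPM, and in DMSO 2 of eIF3 up to 40.5 CPM, so lower levels cannot be told from 0 there. Separations with 0 reads at the floor, and separations, medians and ratios without DMSO 2, were chosen after seeing the data.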
